A study of Mus musculus with 9 samples.

Results

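Leukaemia cells that carried 1 of 2 different short hairpin RNAs (shRNAs) against the same gene, Syncrip, were compared directly with each other. The comparison takes 6 of the 9 RNA-seq libraries of the study, the 3 labelled KD1 (shRNA-1) and the 3 labelled KD2 (shRNA-2), chosen by their titles and by no measured value. The other 3 libraries, from cells with a control hairpin, show which of the hairpins moved a gene. They also entered the same fit, and so its gene filter, its scaling and its estimate of the spread. The cells are a murine leukaemia line driven by MLL-AF9, in which the histone methyltransferase KMT2A (MLL) is joined to AF9, and are labelled as tertiary transplanted. Every group carried the fusion and a hairpin, and RNA was taken at day 4 after transduction. The sources used here state neither the age nor the strain of the mice. The 9 samples were transduced and processed one by one, so p-values cover the spread among such cultures, and the sources used here do not say whether several mice supplied the cells. The sample labels call the control hairpin scrambled while the design text names luciferase as its target, and the labels do not settle which was used. The sources used here do not give the hairpin sequences.

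An shRNA is processed into a small RNA that guides the silencing machinery to matching transcripts, which are then cut or held back from translation. Any hairpin can also reach other transcripts that match it in part, and double-stranded RNA can set off innate immune sensors, so a knockdown is usually run with more than 1 hairpin. SYNCRIP belongs to the hnRNP family of RNA-binding proteins, with roles in RNA processing, stability and translation, and it is a close relative of HNRNPR. MLL-AF9 leukaemia cells are immature myeloid cells that keep the HOXA9 and MEIS1 genes active and can still mature towards neutrophils or monocytes and macrophages. Genes that differ between the hairpins are therefore read here gene by gene, with the level in each library and the side on which the controls lay.

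The hairpin libraries held between 9559638 and 15915940 counts and the controls between 13683660 and 19483923. Levels are given as CPM, the usual counts scaled to a common library size, here after TMM scaling. Differences are log2 values, shRNA-1 minus shRNA-2, ± standard error, so a positive value means higher with shRNA-1. A gene was called when edgeR's quasi-likelihood test gave it a p under 0.05 after Benjamini-Hochberg adjustment over the 12663 genes tested. The shRNA-2 libraries stood apart from the other 6 on principal component 1, which held 51.1% of the variance. The share of counts under 3 ribosomal RNA entries was 14.8%, 11.98% and 19.3% with shRNA-1, 6.10%, 15.8% and 10.4% with shRNA-2 and 7.86%, 8.29% and 4.77% in the controls. The hairpin groups overlapped in that share, and both reached above the highest control. Mitochondrial ribosomal RNAs, mt-Rnr1 and mt-Rnr2, are among those entries. As a check of the labelled cell type, Hoxa9 lay between 139.6 and 440.2 CPM and Meis1 between 52.3 and 75.2 CPM in the 9 libraries.

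Syncrip, the targeted gene (chromosome 9, 88447009 to 88482574, on GRCm38), was depleted by both hairpins and further by shRNA-1. Its levels were 20.1, 15.9 and 17.3 CPM with shRNA-1, 63.2, 46.3 and 60.4 CPM with shRNA-2 and 241, 231 and 207 CPM in the controls. No library of a group overlapped with another group. The direct difference was -1.68 ± 0.15 with an adjusted p of 9.67e-06 in edgeR's quasi-likelihood test. Against the controls, which both comparisons share, Syncrip was -3.68 with shRNA-1 and -1.999 with shRNA-2 on that scale. More Syncrip was lost with shRNA-1. In the fit of all 9 libraries, 4389 genes were called against the controls for shRNA-1 (34.7% of those tested, 17.4% higher and 17.3% lower). For shRNA-2 the count was 6162 (48.7%, 24.4% higher and 24.2% lower). Fits of only the 2 groups compared left a smaller gap. They called 5210 of 12120 tested genes for shRNA-1 and 5576 of 12476 for shRNA-2. Hnrnpr, the relative of Syncrip, stood at 38.4, 41.2 and 41.8 CPM with shRNA-1, 35.3, 32.7 and 41.6 CPM with shRNA-2 and 50.6, 48.4 and 48.1 CPM in the controls, and its hairpin difference of 0.15 ± 0.12 was not called (interval -0.12 to 0.41).

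The hairpins differed from each other at 5192 of the 12663 genes tested (41% called), with 2499 genes higher with shRNA-1 (19.7%) and 2693 higher with shRNA-2 (21.3%). Of these, 2108 genes differed at least 2-fold (16.6%), 795 of them higher with shRNA-1 (6.28%) and 1313 higher with shRNA-2 (10.4%). At least 4-fold differences were called for 217 genes higher with shRNA-1 (1.71%) and 366 higher with shRNA-2 (2.89%). The 3 libraries of one hairpin did not overlap with the 3 of the other at 49.8% of the tested genes, with shRNA-1 above at 25.5% and below at 24.3%. An edgeR test against a difference of 1.5-fold, in place of 0, called 1862 genes. The median difference over all tested genes was 0.0041. Counts of called list members below stand beside these shares of 19.7% and 21.3% among all tested genes.

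**Figure D1:**
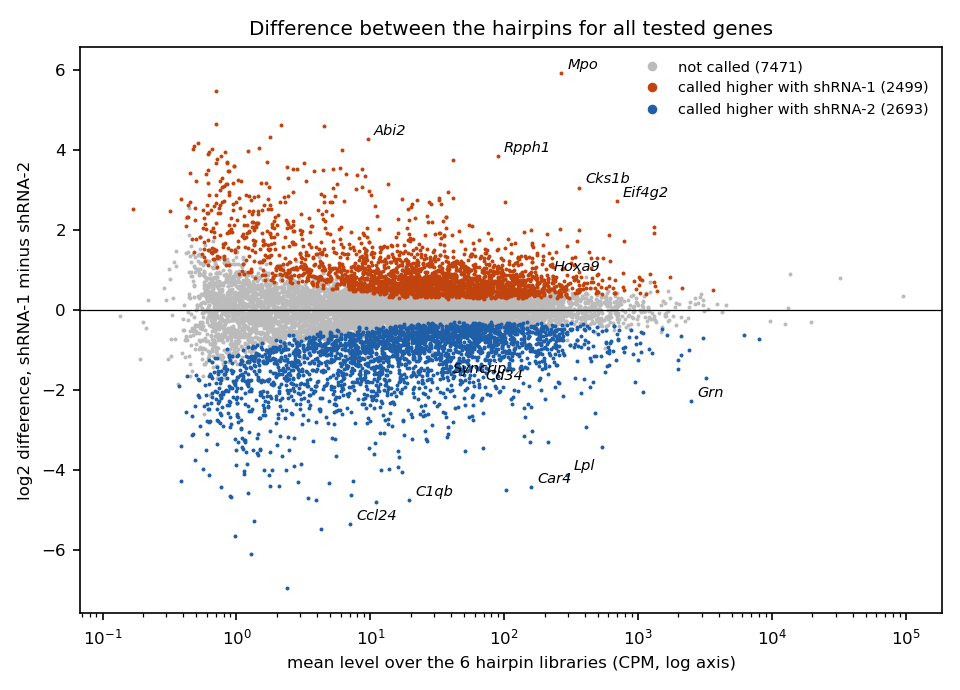
Each point is 1 of the 12663 tested genes, with its mean level over the 6 hairpin libraries (CPM, log axis) against its log2 difference, shRNA-1 minus shRNA-2. The 2499 genes called higher with shRNA-1 and the 2693 called higher with shRNA-2 are coloured, and Mpo, at 5.94, is the highest point.

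At these genes more calls against the controls were made with shRNA-2 than with shRNA-1. Of the 2499 genes higher with shRNA-1, 1161 were called against the controls only with shRNA-2, where they were lower, and 552 only with shRNA-1, where they were higher. A further 173 were called in opposite directions, 264 in the same direction with both hairpins, and 349 with neither. Of the 2693 genes higher with shRNA-2, 1272 were called against the controls only with shRNA-2, 509 only with shRNA-1, 164 in opposite directions, 437 in the same direction and 311 with neither. These counts read both hairpins against the same 3 controls, and a gene missing a call on one side is not shown to be unchanged there. With total counts in place of scaled library sizes the median log2 differences from the controls became -0.23 for shRNA-1 and -0.21 for shRNA-2. The share of calls against the controls that were rises then went from 50.1% to 23.8% for shRNA-1 and from 50.2% to 33.6% for shRNA-2. The counts for shRNA-2 alone became 1198 and 1067 and those for shRNA-1 alone 242 and 702. A fit with the ribosomal share as covariate gave 1403 and 1555 for shRNA-2 alone and 231 and 174 for shRNA-1 alone. Every shRNA-1 library had a higher ribosomal share than every control, so that fit cannot fully separate the share from shRNA-1. The direct comparison of the hairpins moved less with total counts, at 2123 genes higher with shRNA-1 and 2622 higher with shRNA-2.

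**Figure D2:**
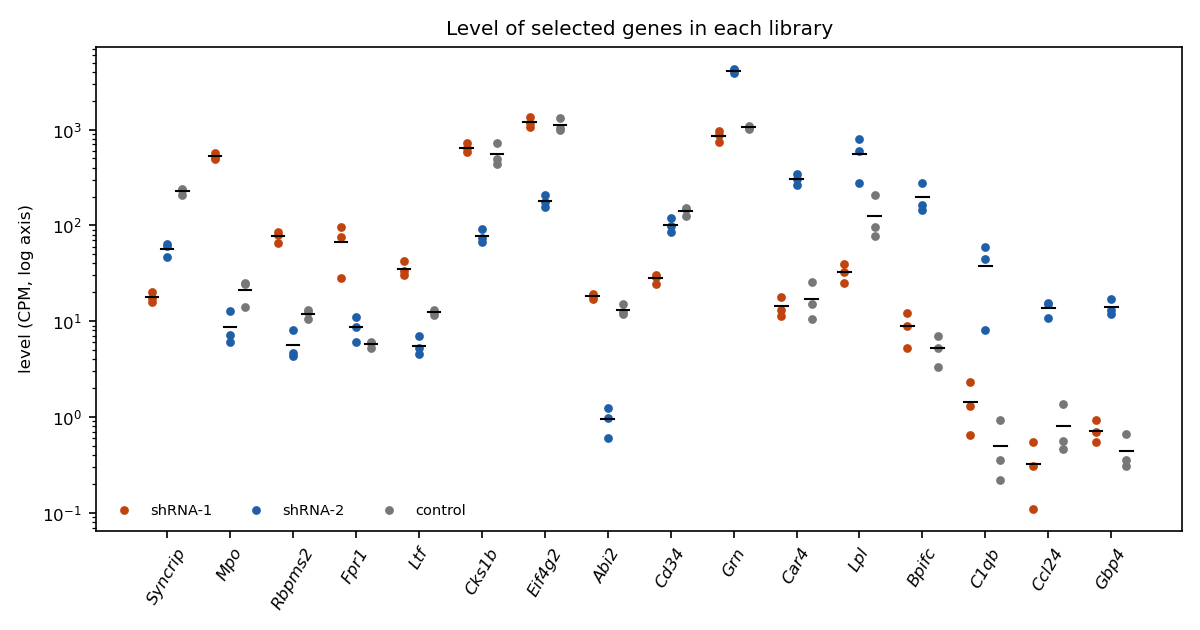
Level of 16 genes in each of the 9 libraries (CPM, log axis), with 1 point per library and a bar at the mean of each group of 3. Syncrip was lowest with shRNA-1, Mpo was high with shRNA-1 alone, Cks1b, Eif4g2 and Abi2 were low with shRNA-2 alone, and the genes from Grn to Gbp4 were high with shRNA-2.

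Mpo had the largest difference of all tested genes on the shRNA-1 side. It encodes myeloperoxidase, the peroxidase of neutrophil primary granules (chromosome 11, 87793581 to 87804413). Its levels were 575, 494 and 508 CPM with shRNA-1, 6.01, 12.8 and 7.15 CPM with shRNA-2 and 25.04, 24.3 and 14.01 CPM in the controls. The lowest shRNA-1 library lay far above every control and the highest shRNA-2 library lay below every control. The difference was 5.94 ± 0.31 (adjusted p = 7.36e-07), and against the shared controls Mpo differed by 4.64 ± 0.29 with shRNA-1 and -1.30 ± 0.27 with shRNA-2. Ltf, the lactoferrin of secondary granules, split the same way, with 30.2, 33.7 and 42.2 CPM with shRNA-1, 6.93, 5.18 and 4.52 CPM with shRNA-2 and 12.4, 13.1 and 11.7 CPM in the controls and a difference of 2.67 ± 0.19. Fpr1, a receptor for bacterial formyl peptides, stood at 27.9, 76.4 and 97.2 CPM with shRNA-1, 6.07, 8.66 and 11.1 CPM with shRNA-2 and 5.98, 6.099 and 5.26 CPM in the controls. All shRNA-1 libraries were above the rest for Fpr1, although the first was well below the other two. Camp, the cathelicidin of secondary granules, stood at 1226, 1222 and 1163 CPM with shRNA-1, 401, 385 and 304 CPM with shRNA-2 and 304, 215 and 284 CPM in the controls, with a difference of 1.73 ± 0.16.

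The granule and neutrophil genes did not move as 1 block. Of 17 tested genes for primary granule proteins, 7 were higher with shRNA-1 (41.2%, beside 19.7% of all tested genes). Another 3 were higher with shRNA-2 (17.6%, below the 21.3% of all tested genes), and the median difference was 0.44. Without shRNA-2 replicate 2 the count higher with shRNA-1 was 11. Nkg7, a protein of cytotoxic granule membranes, was higher with shRNA-1 by 2.25 ± 0.20, and Ctsg, the serine protease cathepsin G, by 1.22 ± 0.16. Cst7, an inhibitor of cysteine proteases, was higher with shRNA-2 (-1.39 ± 0.12), as was Ctsc, the protease that activates granule serine proteases (-0.91 ± 0.22). Elane, neutrophil elastase, was at 5632, 3315 and 3425 CPM with shRNA-1, 3798, 4788 and 2407 CPM with shRNA-2 and 1649.8, 1745 and 1399 CPM in the controls, and its difference of 0.17 ± 0.26 was not called (interval -0.40 to 0.74). Both hairpin groups lay above the controls for Elane, and they overlapped with each other.

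Among 32 tested genes of mature neutrophils, 9 were higher with shRNA-1 (28.1%) and 10 higher with shRNA-2 (31.25%), with a median of 0.02. The shares among all tested genes were 19.7% and 21.3%. Higher with shRNA-1 were Mmp9, a gelatinase (1.56 ± 0.25), Fpr2, a second formyl peptide receptor (1.92 ± 0.34), and Retnlg, a resistin-like secreted protein (2.85 ± 0.30). Il1r2, the decoy receptor for interleukin 1, went the other way, with 29.98, 33.5 and 23.8 CPM with shRNA-1, 335, 266 and 249 CPM with shRNA-2 and 20.4, 30.1 and 32.2 CPM in the controls. S100a8, a subunit of calprotectin, stood at 15089.9, 18728 and 19494 CPM with shRNA-1, 16996, 27593 and 20080.0 CPM with shRNA-2 and 6137, 5305 and 5381 CPM in the controls. Its libraries overlapped between the hairpins, lay above every control, and differed by -0.28 ± 0.22, which was not called.

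Several genes were low with shRNA-2 and near or above the control level with shRNA-1. Cks1b, a small partner of cyclin-dependent kinases, stood at 722, 645 and 579.9 CPM with shRNA-1, 91.4, 72.9 and 67.5 CPM with shRNA-2 and 723, 441 and 487 CPM in the controls. Eif4g2, a translation initiation factor, stood at 1359, 1181 and 1062 CPM with shRNA-1, 207, 177 and 156 CPM with shRNA-2 and 1327, 1029.8 and 992 CPM in the controls. Abi2, a subunit of the WAVE complex that drives actin branching, stood at 19.3, 18.4 and 16.98 CPM with shRNA-1, 0.982, 1.24 and 0.607 CPM with shRNA-2 and 12.4, 15.05 and 11.9 CPM in the controls. For these 3 genes every shRNA-2 library lay far under the lowest of the other 6, and the differences were 3.07 ± 0.21, 2.74 ± 0.18 and 4.28 ± 0.23. Relative to the shared controls the shRNA-1 values were 0.24, 0.11 and 0.48, and the shRNA-2 values were -2.83, -2.63 and -3.80.

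Other genes shared that picture. Cln6, an endoplasmic reticulum protein whose loss causes a lysosomal storage disease, stood at 82.5, 72.5 and 62.6 CPM with shRNA-1, 12.5, 10.9 and 7.62 CPM with shRNA-2 and 69.5, 74.8 and 47.8 CPM in the controls. Cyp2a5, a cytochrome P450, stood at 17.9, 14.3 and 13.9 CPM with shRNA-1, 2.02, 2.397 and 1.01 CPM with shRNA-2 and 17.5, 11.1 and 17.4 CPM in the controls. Fam49b, an inhibitor of Rac signalling, stood at 1944, 2286 and 2162 CPM with shRNA-1, 496, 503 and 512 CPM with shRNA-2 and 2036, 1513 and 1802 CPM in the controls. The shRNA-2 libraries of Cln6, Cyp2a5 and Fam49b all lay under the other 6. Ak3, a mitochondrial adenylate kinase, differed by 2.77 ± 0.20 and Trip6, a LIM domain adaptor, by 2.89 ± 0.24. Whether any of these transcripts matches the seed of the shRNA-2 guide was not tested.

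Small noncoding RNAs, most of which act in the nucleus, were mostly higher with shRNA-1. Of 197 tested genes annotated as snRNA, snoRNA, scaRNA, miRNA, misc_RNA or ribozyme, 154 were higher with shRNA-1 and 2 higher with shRNA-2, with a median difference of 2.34. The classes were 62 of 73 snRNA genes and 79 of 101 snoRNA or scaRNA genes. Rpph1, the RNA of ribonuclease P, which trims transfer RNA precursors, stood at 167 ± 58.5 CPM with shRNA-1, 11.6 ± 4.32 with shRNA-2 and 29.1 ± 9.17 in the controls (SD, n = 3). Rmrp, the RNA of the related ribonuclease MRP, stood at 16.4, 10.8 and 22.6 CPM with shRNA-1, 1.41, 1.93 and 1.55 CPM with shRNA-2 and 4.56, 6.83 and 4.77 CPM in the controls. Snora68, a guide RNA for pseudouridines in ribosomal RNA, stood at 10.9, 10.6 and 22.2 CPM with shRNA-1, 1.35, 1.47 and 1.35 CPM with shRNA-2 and 4.36, 3.51 and 3.85 CPM in the controls. For Rpph1, Rmrp and Snora68 the shRNA-1 libraries were above and the shRNA-2 libraries below every control.

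The summed level of the 197 small RNA genes was 1260.1, 1444 and 2120.2 CPM with shRNA-1, 321, 823 and 560.3 CPM with shRNA-2 and 813, 804 and 739 CPM in the controls. These RNAs mostly lack a poly(A) tail, and in these libraries oligo-dT primed the first cDNA strand and random decamers the second. In the same library order the ribosomal RNA share was 14.8%, 11.98% and 19.3%, then 6.10%, 15.8% and 10.4%, then 7.86%, 8.29% and 4.77%. Within each hairpin group the library with the highest ribosomal share also had the highest small RNA sum. Across the groups, shRNA-1 replicate 2 had a lower ribosomal share than shRNA-2 replicate 2 and a higher small RNA sum. When the ribosomal share was a covariate, 128 of the small RNA genes were called higher with shRNA-1, and with a single library left out between 119 and 158 were. Many snoRNAs lie in introns of host genes, and since the strand setting of the counting is not given, reads of overlapping genes cannot be told apart.

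Replication-dependent histone mRNAs, which end in a stem-loop and not in a poly(A) tail, also stood higher with shRNA-1 at 16 of 24 tested genes, against 2 higher with shRNA-2, with a median of 1.13. Hist1h3e stood at 1.21, 1.46 and 2.77 CPM with shRNA-1, 0.184, 0.464 and 0.135 CPM with shRNA-2 and 0.659, 0.729 and 0.84 CPM in the controls, a low level in every library. Without both shRNA-2 replicate 1 and shRNA-1 replicate 3, 9 were higher with shRNA-1. The genes higher with shRNA-2 were Hist1h2bc (-1.61 ± 0.29) and Hist3h2a (-1.13 ± 0.13). The histone family is made of near-identical copies, so the split of reads between them is uncertain. The part of library make-up in the small RNA and histone differences was not tested beyond the covariate.

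Genes of monocytes and macrophages lay on the shRNA-2 side. Of 35 tested members of that list, 23 were higher with shRNA-2 and 0 higher with shRNA-1, with a median of -1.28 beside 0.0041 for all genes. Their summed level was 3069, 4356 and 4680.5 CPM with shRNA-1, 4799, 8507 and 8495 CPM with shRNA-2 and 2180.3, 2535 and 2614 CPM in the controls. The lowest shRNA-2 library was only slightly above the highest shRNA-1 library in that sum. In bulk RNA, fewer cells of a type and less RNA per cell cannot be told apart.

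Csf1r, the receptor for macrophage colony-stimulating factor, stood at 29.98, 63.7 and 54.8 CPM with shRNA-1, 167, 283 and 349.9 CPM with shRNA-2 and 39.4, 50.1 and 66.4 CPM in the controls. Cd68, a glycoprotein of macrophage lysosomes, stood at 57.7, 83.1 and 85.1 CPM with shRNA-1, 249, 327 and 323 CPM with shRNA-2 and 56.4, 64.8 and 58.2 CPM in the controls. In both genes each shRNA-2 library lay above the other 6, and the differences were -2.42 ± 0.32 and -1.99 ± 0.17. Fcgr1, the high-affinity Fc receptor for IgG, differed by -2.86 ± 0.38 and Fcgr4 by -2.55 ± 0.28. Mertk, a receptor for the uptake of dead cells, differed by -2.67 ± 0.30, and Trem2, a lipid-sensing receptor, by -2.39 ± 0.27.

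The 3 chains of complement C1q, which macrophages secrete, differed widely between the hairpins and also within the shRNA-2 group. C1qb stood at 2.31, 1.31 and 0.646 CPM with shRNA-1, 8.04, 59.9 and 44.3 CPM with shRNA-2 and 0.355, 0.928 and 0.221 CPM in the controls. C1qa stood at 0.879, 0.538 and 0.277 CPM with shRNA-1, 2.45, 22.97 and 16.1 CPM with shRNA-2 and 0.355, 0.133 and 0.0884 CPM in the controls. C1qc stood at 3.404, 1.23 and 0.554 CPM with shRNA-1, 5.83, 45.01 and 26.9 CPM with shRNA-2 and 0.558, 0.729 and 0.177 CPM in the controls. In all 3, shRNA-2 replicate 1 was several times lower than shRNA-2 replicates 2 and 3, yet above every shRNA-1 library. The differences were -4.75 ± 0.70, -4.62 ± 0.77 and -3.96 ± 0.72. In limma-voom, C1qa and C1qc missed the threshold, with adjusted p = 0.0895 and 0.0598. The promoter of C1qb, the 250 bases before its start in RefSeq (chr4:136886201-136886450, minus strand, GRCm38.p6), is shown beside that of Mpo (chr11:87793534-87793783, plus strand, GRCm38.p6) because the genes stand among the largest differences on opposite sides of the comparison. Capitals mark GAGGAA, a core bound by the myeloid factor PU.1, searched on both strands.
C1qb: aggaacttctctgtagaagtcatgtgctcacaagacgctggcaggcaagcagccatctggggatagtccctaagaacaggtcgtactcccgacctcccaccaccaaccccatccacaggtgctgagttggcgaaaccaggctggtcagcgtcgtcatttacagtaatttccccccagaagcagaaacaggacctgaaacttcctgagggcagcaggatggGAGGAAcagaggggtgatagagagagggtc
Mpo: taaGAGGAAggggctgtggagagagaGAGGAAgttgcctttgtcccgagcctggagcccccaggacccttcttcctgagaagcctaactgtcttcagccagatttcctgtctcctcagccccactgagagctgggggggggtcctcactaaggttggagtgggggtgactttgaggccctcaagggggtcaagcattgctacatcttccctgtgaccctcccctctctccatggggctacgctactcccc
GAGGAA or its reverse complement lay in 1 place of the C1qb promoter and in 2 of the Mpo promoter. It lay in 23.3% of all 32851 promoters of that length and in 22.7% of the promoters of all tested genes. Among the tested monocyte and macrophage genes it lay in 14 of 32 promoters (43.8%), from 26 genes. For the tested primary granule genes, the list that holds Mpo, it lay in 8 of 16 (50%), from 14 genes. A match is a description of the letters and not a measured site.

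Secreted signals of the macrophage kind followed the same side. Of 28 tested chemokines and inflammatory cytokines, 15 were higher with shRNA-2 and 0 higher with shRNA-1, with a median of -1.17. Without shRNA-1 replicate 1, 2 members were higher with shRNA-1. Ccl24, an eosinophil attractant, stood at 0.11, 0.307 and 0.554 CPM with shRNA-1, 10.8, 15.1 and 15.3 CPM with shRNA-2 and 0.558, 0.464 and 1.37 CPM in the controls. Ccl6, an abundant myeloid chemokine, stood at 852, 1113 and 1191 CPM with shRNA-1, 1424, 3914 and 3436 CPM with shRNA-2 and 451, 530.2 and 552 CPM in the controls. Csf1, the growth factor that binds Csf1r, stood at 2.97, 5.76 and 6.09 CPM with shRNA-1, 85.5, 17.5 and 41.6 CPM with shRNA-2 and 13.2, 9.68 and 19.4 CPM in the controls. For Csf1 the first shRNA-2 library was the highest, the reverse of its place for the C1q genes. Ccl3 and Ccl4, attractants of monocytes and lymphocytes, differed by -2.19 ± 0.43 and -2.21 ± 0.36.

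Lysosomal genes were also mostly higher with shRNA-2, at 25 of 40 tested members against 4 higher with shRNA-1, with a median of -0.81. Their summed level was 10017, 11353 and 11244 CPM with shRNA-1, 18668, 21015 and 22014 CPM with shRNA-2 and 10157, 10075 and 9607 CPM in the controls. The shRNA-2 libraries all lay above the other 6, and the shRNA-1 sums lay close to those of the controls. Grn, the precursor of lysosomal granulins, stood at 749, 959 and 876 CPM with shRNA-1, 4229.6, 3871 and 4287 CPM with shRNA-2 and 1019, 1050.0 and 1091 CPM in the controls. Ctsb and Ctsl, cysteine cathepsins, differed by -1.70 ± 0.14 and -2.15 ± 0.26. Laptm5, a lysosomal membrane protein of blood cells, differed by -1.12 ± 0.17. The 4 members higher with shRNA-1 became 2 without shRNA-1 replicate 1 or 2 or shRNA-2 replicate 1 or 3. Asah1, the acid ceramidase, was higher with shRNA-1 by 1.38 ± 0.19. Outside that list Fth1, the ferritin heavy chain that stores iron, stood at 1079, 1436 and 2013 CPM with shRNA-1, 2653, 6811 and 5167 CPM with shRNA-2 and 1063, 1412 and 1077 CPM in the controls.

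Antigen presentation genes were mostly higher with shRNA-2. Of 14 tested genes of dendritic cells and MHC class II, 11 were higher with shRNA-2 and 2 higher with shRNA-1. Cd74, the invariant chain that guides class II molecules, stood at 3.07, 6.37 and 5.54 CPM with shRNA-1, 32.03, 58.9 and 49.9 CPM with shRNA-2 and 3.09, 8.75 and 8.44 CPM in the controls. H2-DMa and H2-DMb2, which load peptides, differed by -2.34 ± 0.21 and -2.34 ± 0.27. The pair higher with shRNA-1 were chains of the class II molecules themselves, H2-Aa (3.07, 3.92 and 3.32 CPM with shRNA-1 and 1.23, 1.86 and 1.42 CPM with shRNA-2) and H2-Eb1 (2.75, 3.99 and 3.97 CPM with shRNA-1 and 1.23, 1.24 and 0.54 CPM with shRNA-2), at low levels.

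Several leading genes of the shRNA-2 side fell with shRNA-1 and rose with shRNA-2 against the shared controls. Lpl, the lipoprotein lipase that frees fatty acids, stood at 25.3, 39.3 and 32.6 CPM with shRNA-1, 797, 279 and 599 CPM with shRNA-2 and 76.96, 95.8 and 206 CPM in the controls. Cd300ld, a myeloid receptor, stood at 10.4, 10.6 and 13.7 CPM with shRNA-1, 159, 92.03 and 129 CPM with shRNA-2 and 22.3, 23.2 and 30.02 CPM in the controls. Gas7, a regulator of the cytoskeleton, stood at 6.15, 8.99 and 9.597 CPM with shRNA-1, 89.03, 85.4 and 108 CPM with shRNA-2 and 11.7, 12.1 and 14.9 CPM in the controls. In Lpl, Cd300ld and Gas7 the 9 libraries fell into 3 blocks that did not overlap, with the controls in the middle. The differences were -4.10 ± 0.44, -3.45 ± 0.22 and -3.50 ± 0.19. Lpar1, a receptor for lysophosphatidic acid, differed by -3.92 ± 0.28, and Gstt1, a glutathione transferase, by -3.32 ± 0.34.

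Other genes were high with shRNA-2 and near the controls with shRNA-1. Car4, a membrane-bound carbonic anhydrase, stood at 13.2, 18.05 and 11.4 CPM with shRNA-1, 265, 341 and 305 CPM with shRNA-2 and 10.6, 15.2 and 25.7 CPM in the controls. Bpifc, of the family of lipopolysaccharide-binding proteins, stood at 12.3, 8.91 and 5.26 CPM with shRNA-1, 277, 146 and 164 CPM with shRNA-2 and 7.05, 5.24 and 3.32 CPM in the controls. Rgs5, a regulator of G protein signalling, stood at 0.988, 0.768 and 0.554 CPM with shRNA-1, 9.45, 25.7 and 29.01 CPM with shRNA-2 and 0.203, 1.19 and 0.531 CPM in the controls. Each shRNA-2 library of these genes lay above the other 6. Lsr, Crtac1, Col5a1 and Klk1b11 were also higher with shRNA-2, with differences of -3.67, -3.64, -3.59 and -3.98. Klk1b11 belongs to a family of near-identical kallikreins, so its share of reads is uncertain.

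Genes of the type I interferon response, which cells switch on when they sense foreign nucleic acid or interferon, were higher with shRNA-2 in 30 of 35 tested members and higher with shRNA-1 in 0. The median was -1.50, beside medians against the shared controls of 0.44 for shRNA-1 and 2.08 for shRNA-2. The summed level was 873, 1338 and 1682 CPM with shRNA-1, 2966, 3185 and 3324 CPM with shRNA-2 and 1044, 1049 and 1054 CPM in the controls. The 3 controls were close together, the shRNA-2 libraries all lay well above the other 6, and the shRNA-1 libraries spread around and above the controls.

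Among the effectors, Ifitm3, a membrane protein that blocks virus entry, stood at 115, 217 and 218 CPM with shRNA-1, 621, 742 and 723 CPM with shRNA-2 and 99.3, 110.0 and 99.4 CPM in the controls. Isg15, a ubiquitin-like modifier, stood at 9.44, 24.04 and 47.7 CPM with shRNA-1, 116, 98.7 and 94.04 CPM with shRNA-2 and 19.6, 18.9 and 21.7 CPM in the controls. Oasl2, a relative of the oligoadenylate synthetases, stood at 3.18, 5.91 and 7.75 CPM with shRNA-1, 41.3, 43.7 and 52.5 CPM with shRNA-2 and 2.08, 2.92 and 2.83 CPM in the controls. For Isg15 the first shRNA-1 library lay below the controls and the other two above them. Gbp4, a guanylate-binding protein outside the interferon list, stood at 0.549, 0.691 and 0.923 CPM with shRNA-1, 13.2, 11.99 and 17.1 CPM with shRNA-2 and 0.304, 0.663 and 0.354 CPM in the controls. The differences were -1.92 ± 0.21, -1.92 ± 0.38, -3.01 ± 0.25 and -4.26 ± 0.30. Gbp2, Gbp3 and Gbp7, of the same family, differed by -2.76 ± 0.40, -2.58 ± 0.23 and -2.38 ± 0.32. The Gbp genes are close copies of each other, so reads may be split between them.

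Ifit1, Ifit3 and Mx1, effectors that bind or block viral RNA, differed by -2.60 ± 0.40, -2.12 ± 0.36 and -2.61 ± 0.55, with Mx1 at low levels throughout. Isg20, an exonuclease, stood at 7.36, 10.6 and 13.6 CPM with shRNA-1, 93.4, 50.04 and 75.2 CPM with shRNA-2 and 22.4, 16.8 and 24.5 CPM in the controls, so shRNA-1 lay under the controls and shRNA-2 above them. Zbp1, a sensor of Z-form nucleic acid, differed by -2.36 ± 0.34. Irf7, the factor that amplifies interferon transcription, differed by -1.05 ± 0.33 (adjusted p = 0.0221), and missed the threshold when any of shRNA-1 replicates 1 or 2 or shRNA-2 replicates 2 or 3 was left out, with adjusted p up to 0.0692. Members not called included Irgm1, Bst2, Ifi35 and Oas2.

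The promoters of 3 interferon genes are shown because the genes moved together. They have the largest differences among the called members of the list that match a single RefSeq promoter. Each is given as the 250 bases before its start in RefSeq on GRCm38.p6. They are Gbp2 (chr3:142620413-142620662, plus strand), Ifit1 (chr19:34640639-34640888, plus strand) and Oasl2 (chr5:114896684-114896933, plus strand). Capitals mark the core of the interferon-stimulated response element, taken as GAAA, any 2 bases and GAAA, searched on both strands, so paired TTTC in capitals is a match on the other strand. The 2 motifs were searched separately.
Gbp2: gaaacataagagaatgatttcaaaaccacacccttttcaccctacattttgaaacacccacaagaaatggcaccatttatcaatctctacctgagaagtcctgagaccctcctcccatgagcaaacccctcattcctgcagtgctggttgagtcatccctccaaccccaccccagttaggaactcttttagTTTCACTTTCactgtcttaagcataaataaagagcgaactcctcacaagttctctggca
Ifit1: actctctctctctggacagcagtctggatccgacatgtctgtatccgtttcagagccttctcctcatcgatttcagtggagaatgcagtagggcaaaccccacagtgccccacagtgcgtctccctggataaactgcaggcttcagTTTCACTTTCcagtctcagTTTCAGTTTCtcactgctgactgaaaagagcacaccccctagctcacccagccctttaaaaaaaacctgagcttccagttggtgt
Oasl2: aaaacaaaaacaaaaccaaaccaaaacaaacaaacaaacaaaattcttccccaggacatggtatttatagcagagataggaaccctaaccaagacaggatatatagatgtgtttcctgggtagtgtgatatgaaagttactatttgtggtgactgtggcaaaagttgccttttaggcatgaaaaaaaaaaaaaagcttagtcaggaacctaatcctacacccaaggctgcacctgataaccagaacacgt
The core lay once in the Gbp2 promoter, starting 59 bases before the transcript start, and in 2 places of the Ifit1 promoter, 104 and 85 bases before it. These letters were not in the Oasl2 window, nor in that of Oasl1, the next gene by the same rule (-2.46 ± 0.38). The core lay in 978 of 32851 promoters of that length (2.98%) and in 2.69% of the promoters of all tested genes. It lay in 12 of 27 promoters (44.4%) of the interferon genes higher with shRNA-2. Those 27 promoters belong to 21 genes, since a gene can have several. Over all tested genes of the interferon list, called or not, it lay in 14 of 30 promoters (46.7%), from 24 genes. Among promoters of all genes called higher with shRNA-2 it lay in 3.66%, and among those of genes called higher with shRNA-1 in 1.83%. Such a match is not a measured binding site.

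Sensors of double-stranded RNA moved on the same side. Of 18 tested members of that list, 12 were higher with shRNA-2 and 1 higher with shRNA-1, with a median of -0.59. Without shRNA-1 replicate 1 the count for shRNA-2 was 8, and with the ribosomal covariate it was 9. Dhx58, a helicase of the RIG-I family, stood at 3.07, 4.61 and 8.86 CPM with shRNA-1, 19.6, 22.7 and 22.7 CPM with shRNA-2 and 8.01, 7.96 and 8.44 CPM in the controls. Tlr3, an endosomal receptor for double-stranded RNA, differed by -1.91 ± 0.38. Irf3, the factor activated by these sensors, went the other way, with 25.1, 32.2 and 31.01 CPM with shRNA-1, 12.1, 18.1 and 20.4 CPM with shRNA-2 and 29.2, 34.8 and 41.2 CPM in the controls. Some of these sensors are themselves interferon-induced, and Dhx58 and Irf7 stand on both lists. The macrophage genes above moved on the same side as the interferon genes, and whether the sets can be separated was not tested.

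**Figure D3:**
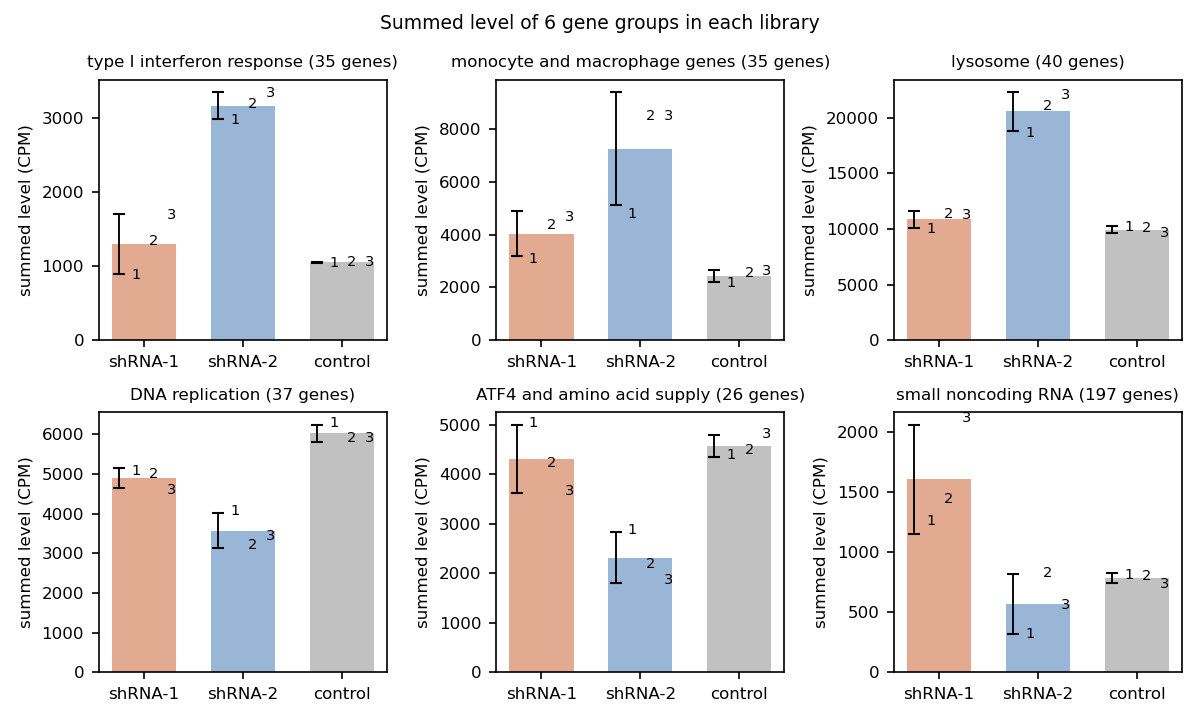
Summed level (CPM) of 6 groups of genes in each library, with bars at the mean of 3 libraries, error bars of 1 SD and digits 1 to 3 at the value of each replicate. Interferon and lysosomal sums were highest in all shRNA-2 libraries, DNA replication and ATF4 sums lowest there, and small noncoding RNA sums highest in all shRNA-1 libraries.

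Cell cycle genes leaned towards shRNA-1, and the summed level of the DNA replication genes was lowest with shRNA-2. Of 37 tested DNA replication genes, 20 were higher with shRNA-1 and 1 higher with shRNA-2, with a median of 0.42. Rrm2, the regulated subunit of the enzyme that makes deoxynucleotides, stood at 233, 216 and 240.2 CPM with shRNA-1, 89.5, 102 and 87.03 CPM with shRNA-2 and 218, 204 and 194 CPM in the controls. Top2a, the topoisomerase that untangles replicated DNA, stood at 501, 471 and 406 CPM with shRNA-1, 262, 155 and 209.8 CPM with shRNA-2 and 957, 984 and 1100.3 CPM in the controls. Rrm2 with shRNA-1 lay among or just above the controls, and Top2a lay in 3 separate blocks with the controls highest. Mcm2, of the replicative helicase, differed by 0.74 ± 0.11, and Tyms, thymidylate synthase, by 1.04 ± 0.12.

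Of 39 tested genes of mitosis and the kinetochore, 17 were higher with shRNA-1 and 1 higher with shRNA-2, with a median of 0.41. Without shRNA-2 replicate 2 the count for shRNA-2 was 5. Ccnb1, the cyclin of mitotic entry, stood at 177, 209 and 167 CPM with shRNA-1, 82.2, 80.05 and 86.01 CPM with shRNA-2 and 185, 164 and 172 CPM in the controls. Cenpa, the centromeric histone, differed by 1.44 ± 0.11, Prc1, which bundles the spindle midzone, by 1.31 ± 0.16, and Cdk1, the mitotic kinase, by 0.83 ± 0.16. Among p53 targets, 9 of 26 were higher with shRNA-2 (34.6%, beside 21.3% of all tested genes) and 2 with shRNA-1 (7.69%, beside 19.7%). Cdkn1a, the p21 inhibitor of cyclin-dependent kinases, stood at 373, 517 and 700.1 CPM with shRNA-1, 873, 1111 and 1044 CPM with shRNA-2 and 234, 290.4 and 267 CPM in the controls, in 3 blocks with the controls lowest. Ddit4, an inhibitor of mTORC1 signalling, stood at 19.7, 15.3 and 16.7 CPM with shRNA-1, 41.4, 57.1 and 50.7 CPM with shRNA-2 and 24.1, 26.8 and 32.9 CPM in the controls.

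Growth and biosynthesis genes leaned the same way with smaller differences. Of 40 tested MYC targets and ribosome biogenesis genes, 13 were higher with shRNA-1 and 0 higher with shRNA-2, and 14 had a difference bounded within 1.5-fold. Without shRNA-2 replicate 2, 5 were higher with shRNA-2. Myc itself stood at 56.4, 62.4 and 46.3 CPM with shRNA-1, 42.4, 23.9 and 21.9 CPM with shRNA-2 and 29.96, 38.1 and 38.8 CPM in the controls, with a difference of 0.90 ± 0.23. Rrp1b, a nucleolar processing factor, differed by 1.01 ± 0.13. Of 47 tested cytosolic ribosomal protein genes, 4 and 1 were called in these directions, shares below the 19.7% and 21.3% of all genes. Without shRNA-2 replicate 2, 12 were higher with shRNA-1. In cholesterol synthesis 8 of 23 were higher with shRNA-1 (34.8%, beside 19.7% of all tested genes) and 0 with shRNA-2. Leaving out shRNA-2 replicate 2 or 3 gave 3, leaving out shRNA-1 replicate 1 gave 5, and leaving out shRNA-1 replicate 2 gave 4, as did total counts.

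ATF4 is the transcription factor that raises amino acid synthesis and import under stress. Of 26 tested genes of that programme, 15 were higher with shRNA-1 and 4 higher with shRNA-2, with a median of 0.54. The former count was 7 without shRNA-1 replicate 1 or without shRNA-2 replicate 3, 8 without shRNA-1 replicate 2, 9 without shRNA-2 replicate 2 and 9 with total counts. Psat1, an enzyme of serine synthesis, stood at 612, 505 and 482 CPM with shRNA-1, 151, 184 and 147 CPM with shRNA-2 and 582, 596 and 535 CPM in the controls. Mthfd2, an enzyme of mitochondrial folate metabolism, stood at 367, 298 and 285 CPM with shRNA-1, 148, 107 and 98.3 CPM with shRNA-2 and 331, 287 and 268 CPM in the controls. The shRNA-1 libraries of Psat1 and Mthfd2 lay among or near the controls and the shRNA-2 libraries far below. Asns, asparagine synthetase, differed by 0.95 ± 0.13.

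Atf4 itself stood at 2106, 1494 and 1188 CPM with shRNA-1, 1217, 732 and 604 CPM with shRNA-2 and 1977, 2021 and 2659 CPM in the controls, so the first shRNA-2 library overlapped with shRNA-1, and its call was lost without shRNA-1 replicate 1 or without shRNA-2 replicate 2 or 3 (adjusted p up to 0.0878). The members higher with shRNA-2 were the lipoprotein receptor gene Vldlr and the stress-induced genes Atf3, Nupr1 and Ppp1r15a. In glycolysis 13 of 24 tested genes were higher with shRNA-2 and 2 with shRNA-1, and without shRNA-1 replicate 3 the former count was 8. Hk1, a hexokinase, differed by -1.02 ± 0.14, and Aldoc, an aldolase, by -1.91 ± 0.20.

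Regulators of myeloid identity were split. Of 30 tested myeloid transcription factors, 13 were higher with shRNA-2 and 4 higher with shRNA-1, with a median of -0.43. Cebpb, a factor of monocytes and of emergency granulopoiesis, stood at 539.9, 718 and 552 CPM with shRNA-1, 383, 295 and 197 CPM with shRNA-2 and 192, 239 and 196 CPM in the controls, and was higher with shRNA-1 (1.05 ± 0.22). Atf3, a stress-induced factor that pairs with AP-1 proteins, stood at 2.64, 4.45 and 3.88 CPM with shRNA-1, 9.203, 19.3 and 20.8 CPM with shRNA-2 and 2.74, 2.19 and 3.36 CPM in the controls, with every shRNA-2 library above the other 6. Of 24 tested immediate early and AP-1 genes, 10 were higher with shRNA-2 and 2 with shRNA-1. Socs3, a feedback inhibitor of cytokine signalling, differed by -1.71 ± 0.28, and Dusp2, a phosphatase of MAP kinases, by 0.89 ± 0.23. Of 15 tested myeloid C-type lectin receptors, which bind sugars on microbes and cells, 8 were higher with shRNA-2 and 0 with shRNA-1. Clec10a differed by -1.96 ± 0.22.

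Among 40 tested hnRNP and MSI2-associated RNA-binding proteins, the class to which SYNCRIP belongs, 13 were higher with shRNA-1 and 2 higher with shRNA-2, one of these being Syncrip itself. Leaving out shRNA-2 replicate 1 gave 21 higher with shRNA-1. Hnrnph1, a splicing regulator, stood at 58.3, 57.4 and 61.4 CPM with shRNA-1, 32.5, 19.6 and 24.5 CPM with shRNA-2 and 53.3, 48.5 and 43.5 CPM in the controls, with a difference of 1.21 ± 0.17. Igf2bp2, which binds and stabilises mRNAs, stood at 1.65, 2.07 and 1.57 CPM with shRNA-1, 9.94, 9.13 and 8.64 CPM with shRNA-2 and 3.498, 4.31 and 6.63 CPM in the controls, with a difference of -2.37 ± 0.27. In translation initiation and aminoacyl-tRNA synthesis 12 of 35 tested genes were higher with shRNA-1 and 2 higher with shRNA-2 (4 without shRNA-2 replicate 2). Eif4a2, an RNA helicase of initiation, differed by 1.06 ± 0.18, and Wars, the tryptophanyl-tRNA synthetase that interferons induce, by -0.63 ± 0.15. Of 32 tested proteasome genes 10 were higher with shRNA-1 (31.25%, beside 19.7% of all tested genes). The 6 members higher with shRNA-2 (18.75%, below the 21.3% of all tested genes) included Psmb9 (-1.24 ± 0.14) and Psmb10 (-0.89 ± 0.14), subunits of the immunoproteasome.

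**Figure D4:**
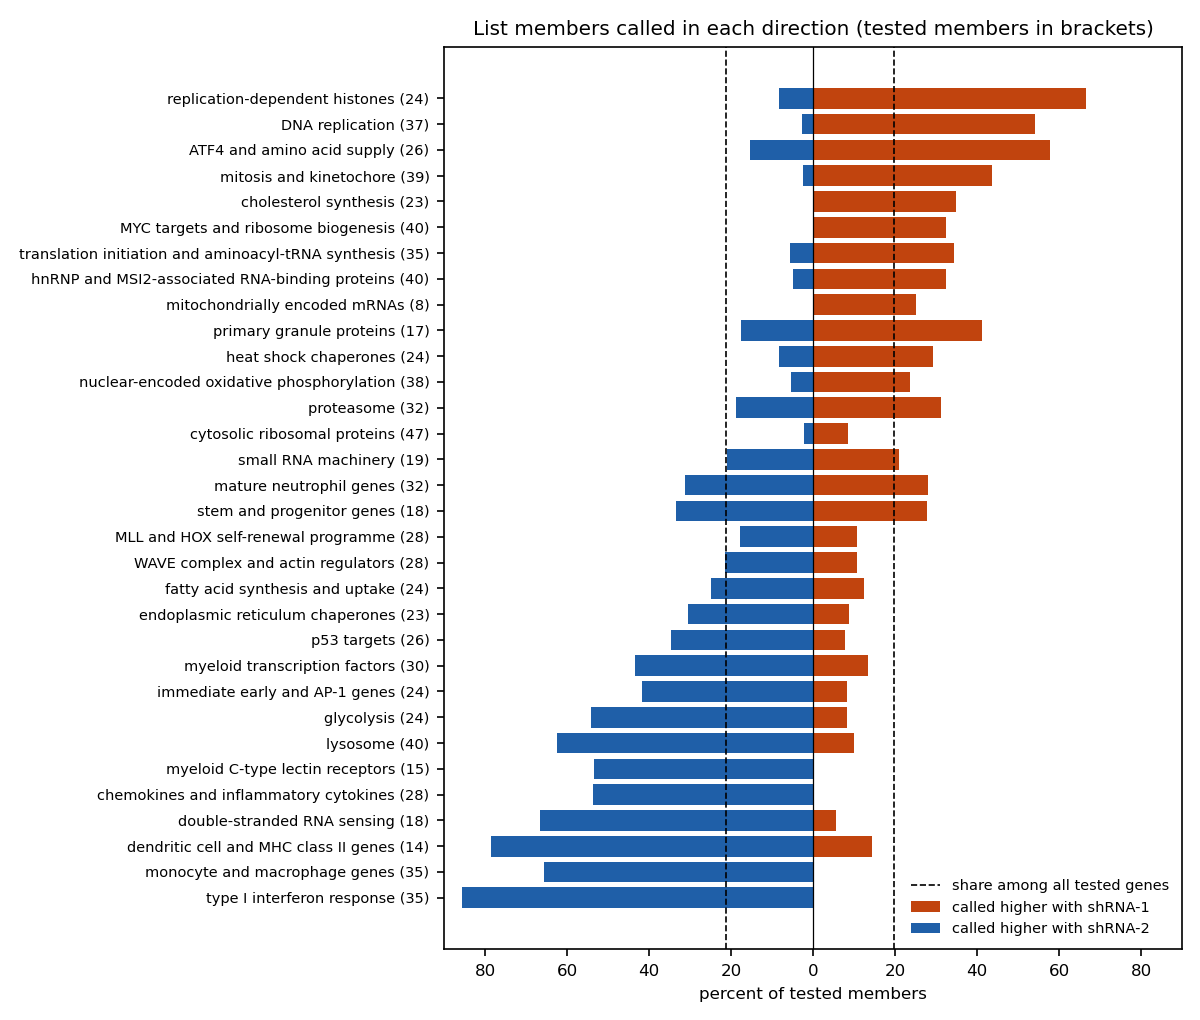
Percent of the tested members of 32 gene lists that were called higher with shRNA-1 (right) or with shRNA-2 (left), with dashed lines at the shares among all tested genes, 19.7% and 21.3%. Interferon, MHC class II, double-stranded RNA sensing, macrophage and lysosomal genes extend furthest to the left, and histone, ATF4 and DNA replication genes furthest to the right.

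Genes of the leukaemia programme were called higher with shRNA-1 at 10.7% and higher with shRNA-2 at 17.9% of tested members, beside 19.7% and 21.3% of all tested genes. Among 28 tested members of a list of MLL and HOX self-renewal genes, 3 were higher with shRNA-1, 5 higher with shRNA-2 and 10 uncalled with a difference bounded within 1.5-fold, with a median of -0.04. The count for shRNA-2 was 2 with the ribosomal covariate or without shRNA-1 replicate 3, and 3 without shRNA-1 replicate 1 or 2, or without shRNA-2 replicate 1 or 3, or with total counts. The count for shRNA-1 was 6 without shRNA-2 replicate 1. Hoxa9, the homeobox factor that MLL fusions keep active, stood at 262, 279 and 274 CPM with shRNA-1, 154, 139.6 and 148 CPM with shRNA-2 and 378, 378 and 440.2 CPM in the controls. Msi2, whose RNA-binding product sustains leukaemia stem cells and associates with SYNCRIP, stood at 17.8, 14.4 and 14.2 CPM with shRNA-1, 7.55, 8.58 and 8.16 CPM with shRNA-2 and 29.5, 31.7 and 29.6 CPM in the controls. For Hoxa9 and Msi2 the 9 libraries fell into 3 blocks, with the controls highest and shRNA-2 lowest, whereas Syncrip itself was lowest with shRNA-1. The differences were 0.88 ± 0.12 and 0.93 ± 0.14. Against the shared controls Hoxa9 differed by -0.55 ± 0.11 with shRNA-1 and -1.44 ± 0.12 with shRNA-2 and Msi2 by -0.97 ± 0.13 with shRNA-1 and -1.90 ± 0.14 with shRNA-2.

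Meis1, the cofactor of HOXA9, stood at 55.6, 57.6 and 55.6 CPM with shRNA-1, 62.4, 52.3 and 53.6 CPM with shRNA-2 and 70.1, 75.2 and 72.1 CPM in the controls, and the interval of its hairpin difference was -0.24 to 0.25. Myb, a transcription factor that these leukaemias need, stood at 382, 365 and 351 CPM with shRNA-1, 343, 302 and 339 CPM with shRNA-2 and 475, 429.9 and 475 CPM in the controls, with an uncalled difference of 0.16 ± 0.12 (interval -0.09 to 0.41). Ikzf2, the zinc finger factor Helios, stood at 186, 189.7 and 157 CPM with shRNA-1, 134, 66.7 and 74.7 CPM with shRNA-2 and 161, 145 and 119.5 CPM in the controls, with a difference of 0.95 ± 0.23. Of 18 tested stem and progenitor genes 5 were higher with shRNA-1 (27.8%) and 6 with shRNA-2 (33.3%), beside 19.7% and 21.3% of all tested genes. Cd34, a surface marker of progenitors, stood at 24.6, 28.7 and 30.5 CPM with shRNA-1, 86.1, 98.3 and 119 CPM with shRNA-2 and 125, 149 and 152 CPM in the controls, so it was low with shRNA-1. Kit, the receptor for stem cell factor, stood at 9.22, 6.605 and 9.04 CPM with shRNA-1, 3.497, 3.87 and 3.64 CPM with shRNA-2 and 6.08, 6.099 and 7.03 CPM in the controls, and Hlf, a stem cell transcription factor, at 8.57, 8.22 and 6.92 CPM with shRNA-1, 2.76, 2.78 and 3.04 CPM with shRNA-2 and 3.04, 4.44 and 3.18 CPM in the controls. Cd34 was higher with shRNA-2 (-1.85 ± 0.15), while Kit (1.17 ± 0.20) and Hlf (1.46 ± 0.21) were higher with shRNA-1.

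The hairpins gave measurably similar levels at 2954 genes (23.3%), where the 95% interval of the difference lay within 1.5-fold in either direction, and 2909 of these were not called. A further 4562 genes (36%) were neither called nor bounded, so the data do not say whether the hairpins differed there by 1.5-fold. Some bounded genes had moved at least 2-fold against the controls in the same direction with both hairpins. Of the 8 such genes with the largest changes in each direction, some are described here, and Mef2c was added after its values were seen. The similarity of 2 values read against the same controls was judged only by the direct interval. Kmt2a, the gene from which the MLL part of the fusion comes, stood at 30.4, 34.5 and 35.3 CPM with shRNA-1, 37.2, 24.4 and 36.6 CPM with shRNA-2 and 116, 140.4 and 175 CPM in the controls. Its hairpin interval was -0.38 to 0.44, while every hairpin library lay far below every control. Whether these reads come from the normal allele, the fusion or both was not tested.

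Hspa2, a heat shock protein 70, stood at 25.8, 21.04 and 23.6 CPM with shRNA-1, 23.01, 16.8 and 25.4 CPM with shRNA-2 and 124, 156 and 109.9 CPM in the controls, with a hairpin interval of -0.28 to 0.50. Slc19a2, a thiamine transporter, stood at 26.1, 32.6 and 43.6 CPM with shRNA-1, 29.9, 40.5 and 31.2 CPM with shRNA-2 and 7.81, 5.37 and 6.23 CPM in the controls, with an interval of -0.42 to 0.45. Sdcbp, the scaffold protein syntenin, had levels of 799, 865 and 793 CPM with shRNA-1, 898, 968 and 798 CPM with shRNA-2 and 314, 207 and 166 CPM in the controls and an interval of -0.55 to 0.32. Tcf4, a helix-loop-helix factor, had an interval of -0.32 to 0.25, and Jmjd1c, a demethylase-like cofactor, one of -0.48 to 0.51. Mef2c, a transcription factor of MLL leukaemia, had an interval of -0.27 to 0.21, with changes of -1.27 and -1.24 against the controls with shRNA-1 and shRNA-2.

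**Figure D5:**
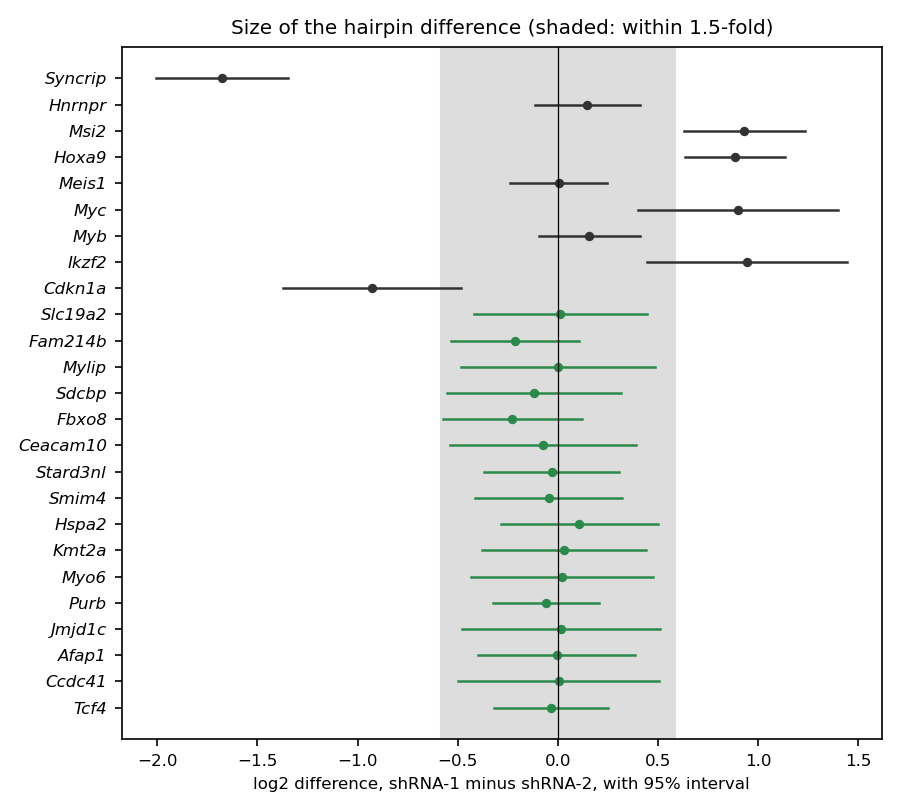
Log2 difference, shRNA-1 minus shRNA-2, with its 95% interval for 9 genes chosen by name (dark) and for 16 genes that moved at least 2-fold with both hairpins (green), with the band within 1.5-fold shaded. Syncrip, at -1.68, lies left of the band and the 16 genes lie inside it, since that is how they were chosen.

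Where all 9 libraries fell into 3 blocks, which held for 2142 genes (16.9%), the order of the blocks was read against that of Syncrip. The order of Syncrip itself, controls above shRNA-2 above shRNA-1, held for 153 genes (1.21%), and its mirror image, shRNA-1 above shRNA-2 above controls, for 177 (1.4%). The orders with shRNA-2 furthest from the controls held for 520 genes (4.11%, controls highest) and 546 (4.31%, shRNA-2 highest). The controls lay in the middle for 423 genes (3.34%) with shRNA-1 highest and for 323 (2.55%) with shRNA-2 highest. No test was made of these orders.

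Most markers of other cell types were sparse, and some were not. Of the 6 lists for other cell types, B cell markers had 4 tested members, T and NK cell markers 5, erythroid markers 4, megakaryocyte and platelet markers 7, mast cell, basophil and eosinophil markers 8 and stromal and endothelial markers 9. Over all 9 libraries Cd79a, Cd3g, Cd8a, Alas2, Tek and Pdgfra had 0 counts. Other members had many. The counts that follow are raw and not scaled to library size, so they do not compare levels between the groups. Tfrc had 13631 counts with shRNA-1, 10235 with shRNA-2 and 14383 in the controls. In the same order Prg2 had 738, 526 and 2947, Cd79b 410, 550 and 894, and Pecam1 220, 799 and 1348. The summed levels were 15.8, 14.2 and 16.8 CPM with shRNA-1, 13.3, 17.2 and 18.8 CPM with shRNA-2 and 17.2, 21.1 and 19.5 CPM in the controls for B cell markers, with 0 members called in either direction. For T and NK cell markers, with 3 members higher with shRNA-2 and 1 higher with shRNA-1, the sums were 49.6, 43.1 and 50.8 CPM with shRNA-1, 43.3, 68.4 and 69.8 CPM with shRNA-2 and 36.4, 36.6 and 37.5 CPM in the controls. For stromal and endothelial markers they were 19.2, 28.95 and 32.9 CPM with shRNA-1, 55.3, 54.5 and 55.1 CPM with shRNA-2 and 35.3, 54.9 and 49.6 CPM in the controls, and 4 members were higher with shRNA-2. Megakaryocyte and platelet markers had 4 members higher with shRNA-2 (2 without shRNA-1 replicate 3 or shRNA-2 replicate 3) and 1 higher with shRNA-1, with sums of 159.7, 172 and 200.4 CPM with shRNA-1, 127, 192 and 195 CPM with shRNA-2 and 138, 162 and 151 CPM in the controls. Itgb3, an integrin chain that macrophages also make, stood at 3.29, 3.99 and 3.88 CPM with shRNA-1, 40.6, 25.3 and 30.8 CPM with shRNA-2 and 5.83, 6.17 and 8.05 CPM in the controls. Pf4, a platelet granule chemokine, stood at 1.54, 2.84 and 4.06 CPM with shRNA-1, 3.74, 16.9 and 19.1 CPM with shRNA-2 and 2.23, 0.862 and 1.41 CPM in the controls, with a difference of -2.21 ± 0.54. Ppbp, another platelet granule chemokine, stood at 7.58, 20.7 and 27.9 CPM with shRNA-1, 10.4, 49.03 and 56.8 CPM with shRNA-2 and 1.52, 2.52 and 2.12 CPM in the controls, and its difference of -1.03 ± 0.52 was not called. Cd28, a T cell receptor partner, was higher with shRNA-2 (-2.73 ± 0.23), while Cd3e had 1 count in all 9 libraries. Erythroid sums were 463, 393 and 420 CPM with shRNA-1 and 251, 251 and 224 CPM with shRNA-2. The controls held 270, 264 and 249 CPM of these. The erythroid sums were mostly Tfrc, since Klf1, Car2 and Hemgn, the other tested members, had 25, 227 and 6 raw counts with shRNA-1. Tfrc was the 1 erythroid member called, and the median difference of that list was 0.03. Mast cell, basophil and eosinophil sums were 44.7, 80.8 and 68.5 CPM with shRNA-1 and 56.7, 53.2 and 61.1 CPM with shRNA-2. For that list the controls held 80.6, 134 and 121 CPM. The part of the markers of other cell types in the differences above was not tested.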

How the data were processed

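The authors deposited whole-number read counts by gene symbol, without normalization, in a table for each library. Tools named in the submitters' processing notes are STAR 2.3.0e and HTSeq 0.6.0, with mm10 as the build. The sources used here state neither the annotation, the strand setting nor the treatment of multiply mapped reads. Per the labels' protocols cDNA was primed with oligo-dT and then random decamers. Tables had 39179 entries for 38926 symbols. Entries sharing a symbol were summed. No unassigned-read entries were found.

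filterByExpr kept 12663 genes and removed 0.0908% of the counts. All 9 libraries entered 1 edgeR 4.0.16 quasi-likelihood fit (R 4.3.3) with TMM factors and group as the only term. The common biological coefficient of variation was 0.165. Intervals are 95% t intervals. Replicate pairs differed by more than sampling noise. Simulated counts with known changes tested the fit. Alternatives were DESeq2 1.42.0, limma 3.58.1 (voom), other scalings, filters and thresholds, 6 libraries, a replicate block, ribosomal RNA as covariate or left out, and each library left out. Leaving out shRNA-2 replicate 1 with shRNA-1 replicate 3, and the 1.5-fold test, were added after seeing the data.

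Members, gene lists (39, from general knowledge) and rules were chosen with earlier results of these data known. Genes named were 9 fixed genes, the 15 largest differences each way (called, mean of at least 5 CPM, no overlap), the 5 largest each way among genes called in opposite directions against control, the 5 most abundant called at least 2-fold each way, and up to 2 per list and direction. Some are not reported here. Further list members, and genes with bounded differences, were chosen after their values were seen. Annotation came from GENCODE M21 (GRCm38), matched by symbol for 94.9% of genes, and promoters from RefSeq (GRCm38.p6), matched for 8585 genes.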

Additional observations from a re-analysis of the deposited data

How the results depend on the processing

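The direct comparison called between 4028 (without shRNA-2 replicate 3) and 5412 genes (without shRNA-2 replicate 1) when 1 library was left out. An adjusted p under 0.01 gave 3318 (1557 higher and 1761 lower with shRNA-1), at least 2-fold gave 2108 (795 and 1313), and a test beyond 1.5-fold gave 1862 (751 and 1111). All other settings run stayed within 1.5 times of the 5192 calls, with DESeq2 at 5231, limma-voom at 5247, the 6 hairpin libraries alone at 4531 and the ribosomal RNA covariate at 4975, of which 4403 were also called without it. The replicate number as a block gave 5640 calls. Same-numbered libraries of the hairpin groups correlated in their deviations at 0.335, -0.129 and 0.253. With the controls these values were 0.240, -0.0454 and 0.147 for shRNA-1 and 0.144, 0.180 and 0.0918 for shRNA-2. With 3 libraries a group, such values cannot settle whether the numbers pair the samples.

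Calls against the controls moved more. For shRNA-1 the ribosomal RNA covariate, higher in every shRNA-1 library than in every control, gave 1358 (827 higher, 531 lower). Total counts gave 1084 higher and 3465 lower. An adjusted p under 0.01 gave 2300 (1122 and 1178), and at least 2-fold 1437 (737 and 700). For shRNA-2 at least 2-fold gave 2578 (1573 and 1005), and an adjusted p under 0.01 gave 2029 lower. With 1 library left out the shRNA-1 count ranged from 2916 (without control replicate 3; 2925 without shRNA-1 replicate 2) to 5178, higher from 1388 to 2689 and lower from 1451 to 2489.

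Of the 191 called genes followed across settings, 171 kept their call in every setting that gave them an adjusted p. Another 20 changed in at least 1, and 0 reversed. A setting in which a gene was not tested did not count as a change. The stricter threshold on p and the fold thresholds were not part of this tally. The shallowest library was shRNA-1 replicate 1, and without it the direct comparison called 4232 genes.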
